A study of Mus musculus with 4 samples.

Results

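The core of the spliceosome was described here through 43 genes, which encode the protein rings of the small nuclear ribonucleoproteins (snRNPs), the proteins particular to the U1, U2, U4/U6 and U5 snRNPs, the factors that recognise the 3′ end of the intron, and members of the Prp19 complex with later-acting factors. The genes were taken by name from a list, and all 43 were found among the 37311 gene identifiers of the count files. In the compared groups, ribosome-protected fragments (RPF) were sequenced from 2 replicates, and total RNA from 2 replicates. Both groups came from J1 mouse embryonic stem cells (strain 129S4/SvJae), and both carried the knockdown of eIF4A3. The cells were feeder-free on gelatin in serum and leukaemia inhibitory factor. They received short hairpins named sheIF4a3-2 and sheIF4a3-3, were selected for 3 days in puromycin at 1 μg/mL, and were lysed on day 4.5 after 1 min in cycloheximide at 0.1 mg/mL. The labels do not tell which of the 2 hairpins a replicate carried, nor whether an RPF and a total RNA library of the same number share a lysate. Cells that lack the knockdown were not used, so every comparison is between the RPF and total RNA of knockdown cells and none shows an effect of the knockdown.

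Introns are removed in steps. The U1 snRNP pairs with the 5′ splice site, SF1 and the U2AF heterodimer mark the branch point and the 3′ splice site, and the U2 snRNP then takes over the branch point. The U4/U6.U5 tri-snRNP joins, helicases remodel the RNA, and the Prp19 complex and other factors stabilise the catalytic centre built on U2 and U6. Each of the U1, U2, U4 and U5 RNAs is held by a ring of Sm proteins, and U6 by a ring of LSm proteins. eIF4A3 is the helicase of the exon junction complex and is brought to the spliceosome by CWC22.

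A ribosome footprint is the stretch of message that a ribosome shields from nuclease, so the RPF count of a gene depends both on how much message there is and on how many ribosomes it carries. The total RNA count of the same gene was used as the measure of its message. Gene counts were 9434987 and 7615277 in RPF replicates 1 and 2, against 8969965 and 8218020 in total RNA replicates 1 and 2. Levels are given as CPM, counts scaled to library size with trimmed mean of M-values (TMM) factors, and the ratio is the log2 of RPF over total RNA, given ± its standard error (SE). In the RPF libraries 6 pluripotency markers summed to 4651 and 4547 CPM, against 3562 and 3282 CPM in total RNA. The 6 fibroblast markers summed to 12.5 and 11.5 CPM in RPF and to 5.48 and 5.16 CPM in total RNA, and Dcn had no count in any library. The targeted gene, Eif4a3, had 212 and 193 CPM in RPF, against 120.3 and 100.6 CPM in total RNA, a ratio of 0.87 ± 0.15 (adjusted p = 0.00477). This value is a ratio within knockdown cells and does not measure the depth of the knockdown.

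Of the 42 core spliceosome genes with enough counts to test, 36 were higher in RPF than in total RNA and 0 were lower, at an adjusted p under 0.05. Over the 13809 genes tested, 20.5% were higher and 21.2% were lower, and of the protein-coding genes among them 20.8% were higher and 19.3% lower. Without total RNA replicate 2, 26 members and 11.8% of all tested genes were higher. The same test gave 0 members lower at an unadjusted p under 0.05, and the share of all genes at that threshold was not counted. DESeq2 and limma-voom also called 0 members lower, against 2321 and 2917 of the 13809 genes tested. The median ratio of the 42 genes was 0.91, a fold of 1.88, against −0.02 over all tested genes, and their ratios ran over a range from 0.08 to 2.24. Both RPF libraries lay above both total RNA libraries for 41 of the 42 genes, which held for 34.9% of all tested genes. The reverse order held for 0 of the 42 genes and for 37.9% of all tested genes. A ratio of at least 2-fold with an adjusted p under 0.05 was found for 17 members and for 9.41% of all tested genes. The 6 genes that did not pass were Lsm2, Sf3b3, Snrnp40, Prpf4, Prpf31 and Cwc22, with ratios of 0.20, 0.58, 0.44, 0.08, 0.27 and 0.44. In bulk libraries such as these, fewer cells that hold a message and less of it per cell cannot be told apart. The ratio is relative to the other genes of each library: scaled by library size alone, the median of all genes was −0.46 and that of the 42 genes 0.48. In that setting 24 of the 42 genes were called higher, against 8.86% of all tested genes. Of all called genes 49.2% were higher with TMM and 19.8% with library size alone, and the ratios of Lsm2, Snrnp40, Prpf4 and Prpf31, which did not pass in either case, turned negative. A change of scaling shifts all ratios nearly alike. The distance between both medians, 0.94 under either scaling, was thus fixed in advance and tests nothing.

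**Figure D1:**
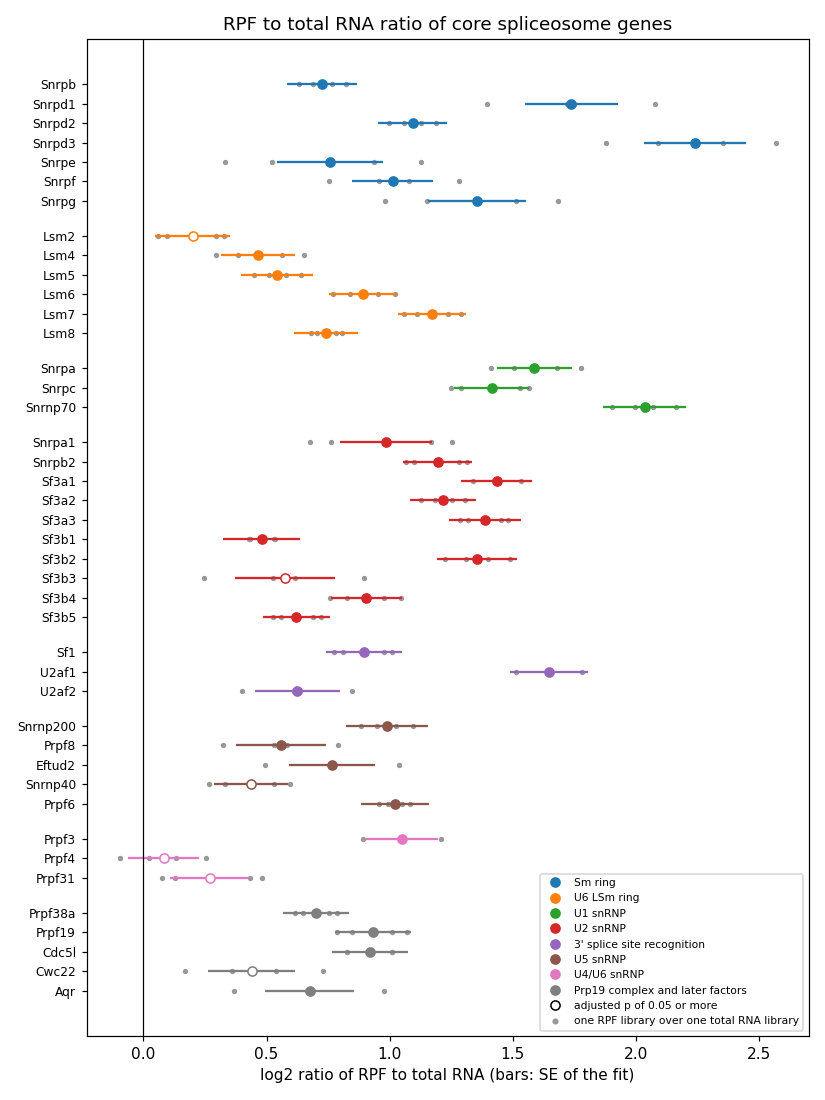
Log2 ratio of RPF to total RNA (x axis) of the 42 tested core spliceosome genes, ordered by particle and coloured by it. Large points are the fitted ratios with SE bars, open where the adjusted p was 0.05 or more, and small grey points are the 4 quotients of 1 RPF library over 1 total RNA library. The grey points of 41 genes all lie right of 0, and those of Prpf4 lie on both sides.

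**Figure D2:**
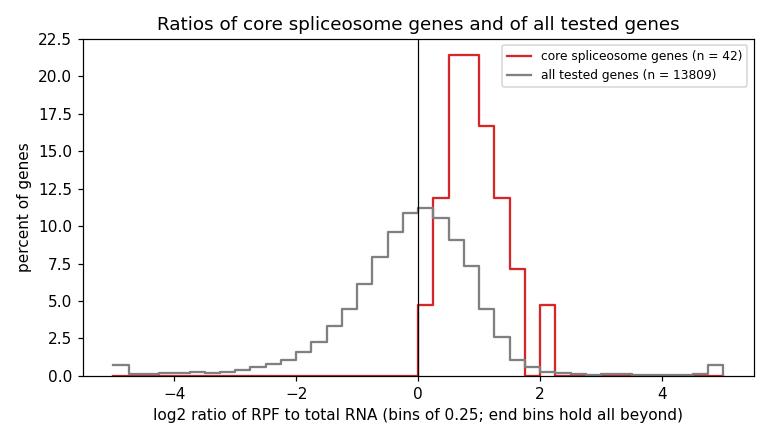
Percent of genes (y axis) by log2 ratio of RPF to total RNA (x axis, bins of 0.25), for the 42 tested core spliceosome genes and for all 13809 tested genes. The core spliceosome genes lie between 0.08 and 2.24 around a median of 0.91, and all tested genes are centred near 0.

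The bases around the start codon are shown for some genes from the upper and lower parts of the range of ratios. A ribosome reads these bases when it starts on a message. Other genes of those parts are not shown, such as Snrpa at 1.59 and Snrnp40 at 0.44. They were taken from the GENCODE M21 transcript (GRCm38) with the longest coding sequence of each gene. Capitals mark the base 3 before the start codon, the start codon and the base after it.
Snrpd3: cctgccAagATGT
Snrnp70: tttggcAagATGA
U2af1: cgctcgAaaATGG
Sf3a1: gtcgcaGtcATGC
Sf3b1: gtggacAaaATGG
Prpf8: tctcccGgcATGG
Prpf4: ccgcccGgcATGG
Prpf31: ggccttGggATGT
Cwc22: cagcagAaaATGA
Lsm2: tcggagCcgATGG
A purine 3 before the start codon (ANNATG or GNNATG, read on the message strand) was present in 42 of the 43 genes, or 97.7%, against 84.9% of 18196 protein-coding genes. The gene without it in the transcript used was Lsm2. That transcript holds 393 coding bases, against 425 over all annotated Lsm2 transcripts. It may not be the main one in these cells, and a link of the start bases to the ratio was not tested. The stricter form with G after the start codon (ANNATGG or GNNATGG, which lies within the looser form) was present in 22 of the 43 genes, or 51.2%, against 42.2% of protein-coding genes. Among the genes shown, that form occurs in U2af1, with a ratio of 1.65, and equally in Prpf4, with a ratio of 0.08.

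The Sm ring proteins, 7 proteins that close around the snRNA, were higher in RPF for 7 of 7 genes, with a median ratio of 1.09 and a range of 0.73 to 2.24. Over all tested genes 20.5% were higher and 21.2% lower, and these shares are the background for each particle that follows. Snrpd3 (ENSMUSG00000020180.8), which encodes SmD3, had the largest ratio of all 42 genes. It had 594 and 427 CPM in RPF, against 116 and 100.3 CPM in total RNA, with means of 511 ± 118 and 108 ± 11.2 CPM (SD, n = 2 each). Both RPF libraries were far above both total RNA libraries, although they differed from each other by more than the total RNA libraries did, and the ratio was 2.24 ± 0.21 (adjusted p = 0.000771). Snrpd1, which encodes SmD1, was next within the ring, with 244 and 191 CPM in RPF, against 72.6 and 57.9 CPM in total RNA, a ratio of 1.74 ± 0.19. The lowest Sm ratio was that of Snrpb (ENSMUSG00000027404.9), which encodes SmB, the partner of SmD3 in the ring. Snrpb had 283 and 294 CPM in RPF, against 182 and 166 CPM in total RNA. Its groups did not overlap, and its ratio was 0.73 ± 0.14 (adjusted p = 0.00714), though without total RNA replicate 2 the adjusted p was 0.0934. The partners SmD3 and SmB thus had ratios of 2.24 and 0.73, and the difference between these genes was not tested. The SmD2 gene Snrpd2 had a ratio of 1.09 ± 0.14. The E, F and G proteins form a trimer before the ring closes. Their genes had ratios of 0.76 ± 0.21 for Snrpe, 1.01 ± 0.16 for Snrpf and 1.35 ± 0.20 for Snrpg. Exons of other genes overlap 51.2% of the Snrpf coding sequence. Snrpe had 257 and 169 CPM in RPF, against 134 and 118 CPM in total RNA, so its RPF libraries lay further apart than the distance from the lower of them to total RNA. Its adjusted p of 0.0276 was 0.0732 without RPF replicate 1 and 0.102 without total RNA replicate 2.

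Many of these small genes have processed copies elsewhere in the genome, and a footprint is short, so coding sequences of 2 ring genes are shown to mark what a read can assign. They are GENCODE M21 coding sequences (GRCm38) without the stop codon, from the transcript with the longest coding sequence, and Snrpd3 is shown from base 1 to base 300. Capitals mark bases that lie in at least 1 stretch of 28 bases found at no other annotated locus, and lower case marks bases whose every such stretch occurs elsewhere too.
Snrpd3: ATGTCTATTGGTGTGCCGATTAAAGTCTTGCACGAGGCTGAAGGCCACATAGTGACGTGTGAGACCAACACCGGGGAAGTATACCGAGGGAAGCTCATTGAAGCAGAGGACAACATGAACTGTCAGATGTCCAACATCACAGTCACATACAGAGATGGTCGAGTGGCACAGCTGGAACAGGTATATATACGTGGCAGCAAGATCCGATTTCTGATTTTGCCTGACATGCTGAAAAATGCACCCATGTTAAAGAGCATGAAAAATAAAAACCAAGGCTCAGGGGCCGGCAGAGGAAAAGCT
Snrpg: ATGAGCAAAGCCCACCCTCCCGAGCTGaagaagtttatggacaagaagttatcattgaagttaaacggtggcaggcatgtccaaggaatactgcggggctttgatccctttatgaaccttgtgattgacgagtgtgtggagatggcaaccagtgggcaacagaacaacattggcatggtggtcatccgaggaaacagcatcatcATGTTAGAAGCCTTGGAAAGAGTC
Snrpd3 has 378 coding bases, all 378 in stretches found nowhere else, and 0% of its coding stretches occur at another locus. In Snrpg 51 of 228 bases are in capitals, all at the ends, and only through stretches that run past the coding sequence. Of the stretches that lie wholly within the coding sequence, 100% occur at another locus in Snrpg, and likewise in Lsm7 of the LSm ring. Of all 43 genes, 24 share at least 1 coding stretch with another locus and 15 share at least 50% of them. The shared group of 15 had 14 genes higher and a median ratio of 1.01, beside 20.5% higher and a median of −0.02 over all tested genes. The 15 genes whose coding sequence neither shares a stretch nor is overlapped by another gene's exon had 14 tested, 10 higher and a median of 0.60. Reads not uniquely aligned were tallied apart from the gene counts. How many of them came from the shared stretches cannot be told, so the values of the 24 genes are uncertain to that extent. The part of read assignment in the ratios was not tested.

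The U6 LSm ring is a nuclear ring of LSm2 to LSm8 that binds the 3′ end of U6 RNA. Of its 6 tested genes, 5 were higher in RPF, with a median ratio of 0.64 and a range of 0.20 to 1.17. Lsm7 (ENSMUSG00000035215.8) was highest, with 113 and 109 CPM in RPF, against 52.4 and 46.3 CPM in total RNA, and a ratio of 1.17 ± 0.14 (adjusted p = 0.00132). Its RPF libraries stood close together and apart from total RNA, but 100% of its coding stretches occur at another locus. Lsm2 (ENSMUSG00000007050.10) was lowest, with 52.2 and 44.5 CPM in RPF, against 41.6 and 42.6 CPM in total RNA. The lower RPF library of Lsm2 lay just above the total RNA libraries, and the ratio of 0.20 ± 0.15 did not pass (adjusted p = 0.327). Between them, Lsm6 had 0.89 ± 0.14, Lsm8 0.74 ± 0.13, Lsm5 0.54 ± 0.14 and Lsm4 0.47 ± 0.15. Lsm8 is the subunit that makes the ring nuclear, and none of its coding stretches occur elsewhere. Lsm4 (adjusted p = 0.0425) lost its call without RPF replicate 2, total RNA replicate 1 or total RNA replicate 2, with an adjusted p of 0.361 in the last case. Lsm5 (adjusted p = 0.0222) lost it without either total RNA library, with 0.0876 and 0.192. Lsm3 (ENSMUSG00000034192.3) had 0 and 2 counts in RPF, against 7 and 8 counts in total RNA, which were below the filter. No coding stretch of Lsm3 occurs at another locus. Whether the annotation used for counting caught the reads of Lsm3 cannot be told from the files, so these counts are not read as its expression.

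The 3 proteins particular to the U1 snRNP were all higher in RPF, each by more than 2-fold, with a median ratio of 1.59. Snrnp70 (ENSMUSG00000063511.7), which encodes U1-70K, a protein that binds the U1 RNA directly, had 874 and 779 CPM in RPF, against 208 and 195 CPM in total RNA. The RPF and total RNA libraries were widely apart, the means were 826 ± 67.3 and 202 ± 9.39 CPM (SD, n = 2 each), and the ratio was 2.03 ± 0.17 (adjusted p = 0.000559). No coding stretch of Snrnp70 occurs at another locus. Snrpc (ENSMUSG00000024217.9), whose protein steadies the pairing of U1 with the 5′ splice site, was the lowest of the 3. Its values were 148 and 179.6 CPM in RPF, against 62.3 and 60.7 CPM in total RNA, without overlap, and its ratio was 1.41 ± 0.15 (adjusted p = 0.00105). Snrpa, which encodes the A protein of the particle, had a ratio of 1.59 ± 0.15.

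Of the 10 U2 snRNP genes, 9 were higher in RPF, with a median ratio of 1.09 and a range of 0.48 to 1.43. Snrpa1 and Snrpb2, whose products bind the U2 RNA as a pair, had ratios of 0.99 ± 0.19 and 1.19 ± 0.14. All 3 SF3a genes were higher by more than 2-fold, Sf3a1 at 1.43 ± 0.14, Sf3a3 at 1.39 ± 0.15 and Sf3a2 at 1.22 ± 0.13. Sf3a1 (ENSMUSG00000002129.5), the highest of the particle, had 335 and 315 CPM in RPF, against 125 and 116 CPM in total RNA. Each of its RPF libraries was well above both total RNA libraries (adjusted p = 0.000881).

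The SF3b genes, whose products clamp the branch point helix, spread more widely, with 4 of 5 higher and a median ratio of 0.62. Sf3b1 (ENSMUSG00000025982.7), the large subunit that holds the branch point and a frequent site of mutation in human blood cancers, was the lowest of the U2 genes. It had 596 and 595 CPM in RPF, against 442 and 412 CPM in total RNA. The RPF libraries were nearly equal and both above total RNA, with a ratio of 0.48 ± 0.16 (adjusted p = 0.0443). That call was lost without any 1 of the 4 libraries, with adjusted p-values between 0.0824 and 0.351. Sf3b2, by contrast, had 687 and 647 CPM in RPF, against 277 and 245 CPM in total RNA, a ratio of 1.35 ± 0.16 (adjusted p = 0.00139). The small subunit Sf3b5 had 0.62 ± 0.14, with an adjusted p of 0.118 without total RNA replicate 2, and Sf3b4 had 0.91 ± 0.14. Sf3b3 had 834 and 646 CPM in RPF, against 545 and 449 CPM in total RNA, and its ratio of 0.58 ± 0.20 missed the threshold (adjusted p = 0.0558). Sf3b3 passed without RPF replicate 2, with an adjusted p of 0.0131.

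All 3 genes that recognise the 3′ end of the intron were higher in RPF. U2af1 (ENSMUSG00000061613.6), the small U2AF subunit that reads the terminal AG, had 591 and 542 CPM in RPF, against 189.8 and 172 CPM in total RNA. The ratio was 1.65 ± 0.16 (adjusted p = 0.000776), with RPF well clear of total RNA, and 84.8% of its coding stretches occur at another locus. U2af2 (ENSMUSG00000030435.8), the large subunit that binds the polypyrimidine tract, had 616 and 523 CPM in RPF, against 396 and 342 CPM in total RNA. Its groups did not overlap either, but its ratio was 0.63 ± 0.17 (adjusted p = 0.0259). The call of U2af2 was lost without RPF replicate 1, total RNA replicate 1 or total RNA replicate 2, with adjusted p-values between 0.066 and 0.249. Sf1, whose product binds the branch point before U2 does, had a ratio of 0.90 ± 0.15 (adjusted p = 0.00451).

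**Figure D3:**
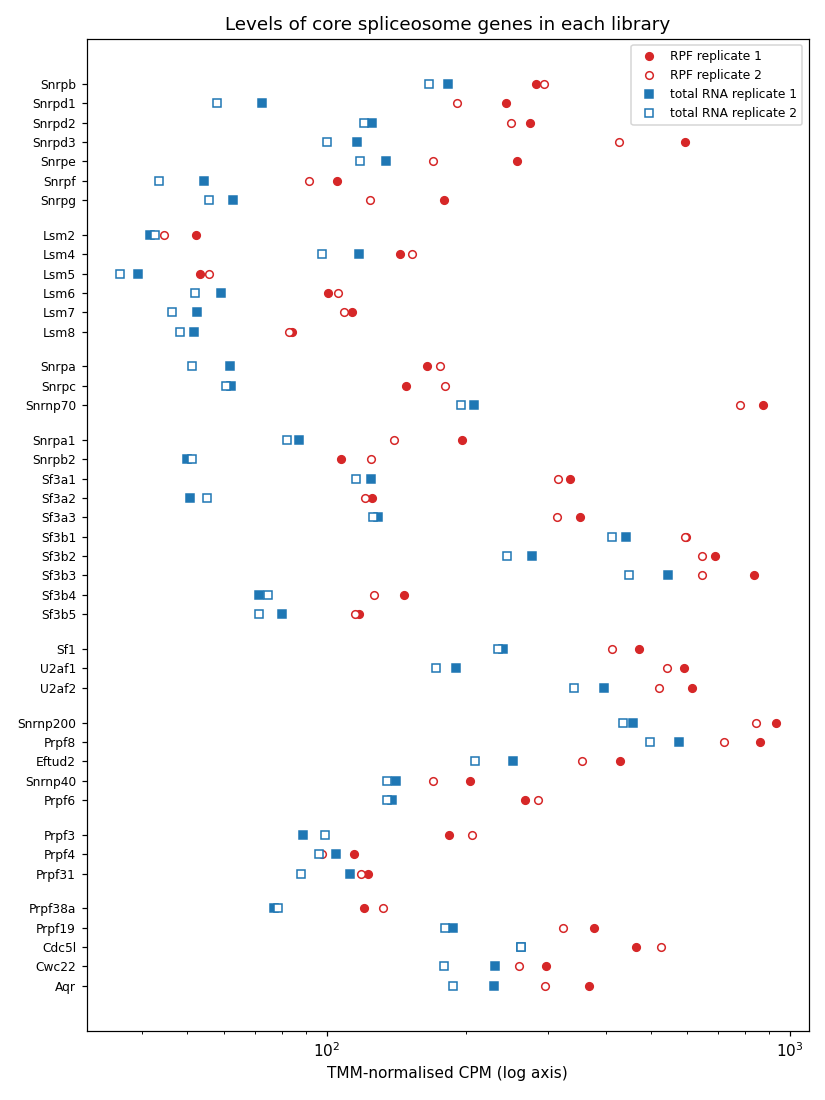
TMM-normalised CPM (x axis, log scale) of the core spliceosome genes in each library, with RPF and total RNA replicates as separate markers, filled for replicate 1 and open for replicate 2. The distance between RPF and total RNA is wide for Snrpd3 and Snrnp70, and the groups of Prpf4 overlap, with RPF at 115 and 97.7 CPM and total RNA at 104 and 96.1 CPM.

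Of the 5 U5 snRNP genes, 4 were higher in RPF, with a median ratio of 0.77 and a range of 0.44 to 1.02. Prpf6 (ENSMUSG00000002455.8), which bridges U5 and U4/U6 in the tri-snRNP, was highest, with 268 and 285 CPM in RPF, against 138 and 135 CPM in total RNA. Replicates of Prpf6 differed little in either fraction, and the ratio was 1.02 ± 0.14 (adjusted p = 0.00202). The helicase gene Snrnp200, whose product unwinds U4 from U6, had 0.99 ± 0.17, and the GTPase gene Eftud2 had 0.77 ± 0.18. The call of Eftud2 was lost without total RNA replicate 2 (adjusted p = 0.13). Prpf8 (ENSMUSG00000020850.7) encodes the scaffold that cradles the catalytic RNA and has the longest coding sequence of the 43 genes. It had 863 and 721 CPM in RPF, against 576 and 499 CPM in total RNA. Its libraries did not overlap, with a ratio of 0.56 ± 0.18 just past the threshold (adjusted p = 0.0458), and the call was lost without RPF replicate 1, total RNA replicate 1 or total RNA replicate 2, with adjusted p-values between 0.143 and 0.35. Snrnp40 (ENSMUSG00000074088.4), a WD40-repeat protein of U5, had 204 and 169.6 CPM in RPF, against 141 and 135 CPM in total RNA. The Snrnp40 libraries were separate, but the ratio of 0.44 ± 0.15 missed the threshold (adjusted p = 0.0532), and it passed without RPF replicate 2 (adjusted p = 0.0175).

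In the U4/U6 snRNP, 1 of the 3 genes was higher in RPF. Prpf3 (ENSMUSG00000015748.7) had 184 and 206 CPM in RPF, against 89 and 99.1 CPM in total RNA, without overlap, and a ratio of 1.05 ± 0.15 (adjusted p = 0.00211). Its binding partner Prpf4 (ENSMUSG00000066148.3) had 115 and 97.7 CPM in RPF, against 104 and 96.1 CPM in total RNA. The Prpf4 libraries overlapped, the only such case among the 42 genes, and its ratio of 0.08 ± 0.15 was the smallest (adjusted p = 0.68). Prpf31, which binds the U4 RNA and joins it to U5, had 123 and 119 CPM in RPF, against 112 and 87.9 CPM in total RNA. The ratio of Prpf31 was 0.27 ± 0.16 (adjusted p = 0.216), and 11.4% of its coding sequence is overlapped by an exon of another gene. Prpf3 and Prpf4, whose products form 1 complex, had ratios of 1.05 and 0.08, and the difference between them was not tested.

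Of the 5 genes of the Prp19 complex and later factors, 4 were higher in RPF, with a median ratio of 0.70, and none of the 5 reached 2-fold. Prpf19 (ENSMUSG00000024735.6), the ubiquitin ligase of its complex, had 377 and 323 CPM in RPF, against 187 and 179.6 CPM in total RNA, and a ratio of 0.93 ± 0.15 (adjusted p = 0.00383). RPF of Prpf19 was clear of total RNA in both replicates. Cdc5l, a core partner in the same complex, had 0.92 ± 0.16. Prpf38a, which is needed to activate the assembled spliceosome, had 0.70 ± 0.13. The intron-binding helicase gene Aqr had 0.67 ± 0.18, with an adjusted p of 0.195 without total RNA replicate 2. Cwc22 (ENSMUSG00000027014.7), whose product carries eIF4A3 to the spliceosome, had 297 and 260.0 CPM in RPF, against 231 and 179 CPM in total RNA. Both RPF values of Cwc22 lay above both total RNA values, but the ratio of 0.44 ± 0.18 did not pass (adjusted p = 0.0834). Without RPF replicate 2 its adjusted p was 0.041. For Cwc22, 59% of the coding stretches occur at another locus.

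Levels of different genes were compared only per length. Footprint density, the RPF CPM per kilobase of coding sequence, had a median of 213 over the 42 genes and differed 19.9-fold between its ends, Snrpd3 at 1351 ± 313 and Prpf4 at 67.9 (mean of 2 RPF libraries). The Sm ring had the highest median of the particles, 664, and ran from 382 to 1351 CPM per coding kilobase, a 3.54-fold spread among proteins that each enter the ring once. In order of density, Snrpd3 was followed in the ring by Snrpe at 772, Snrpd2 at 741, Snrpg at 664, Snrpd1 at 609, Snrpb at 416 and Snrpf at 382. With all annotated coding bases of a gene as its length, Snrpe had 420 and Snrpd1 388, which places Snrpe behind Snrpd2 and Snrpg, and the Sm median was 420, still above the 362 of the next particle, the 3′ splice site factors. Neighbours in the first order from Snrpe to Snrpd1 overlapped between their RPF libraries, whose range was 613 to 931 for Snrpe and 535 to 684 for Snrpd1. In total RNA per kilobase of exon, the same 7 genes ran from 35.7 CPM for Snrpd3 to 251 CPM for Snrpe, a 7.03-fold spread. Snrpd3 was thus first of the ring in footprints per coding length and last in total RNA per exon length. Of the coding stretches, 0% occur at another locus in Snrpd3 and 13.7% in Snrpb. The shares are 60.6% in Snrpd1, 75.5% in Snrpd2, 80.3% in Snrpe, 83.1% in Snrpf and 100% in Snrpg. Exons of other genes overlap 51.2% of the coding sequence of Snrpf, the ring's lowest in density, and 0% in the other ring genes. Density was divided by the whole coding length. The part of read assignment, including this overlap, in the order and spread of the ring was not tested.

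The particles differed in the spread of density between their highest and lowest members. They held from 3 to 10 tested genes, and such a spread tends to widen with more genes. The part of gene number, of shared coding stretches and of overlapping exons in these spreads was not tested. The U5 genes had 98 to 174 RPF CPM per coding kilobase, a 1.77-fold spread, and the U4/U6 genes 67.9 to 95.1, a 1.40-fold spread. The LSm ring had 123 to 430, the U1 proteins 198 to 615, the U2 proteins 84.5 to 451, the 3′ splice site factors 231 to 790, and the Prp19 group 74.9 to 223. Within U2AF, U2af1 had 790 and U2af2 399 RPF CPM per coding kilobase, against 196 and 177 total RNA CPM per exon kilobase. The 10 densest members were the same 10 under both lengths, in a different order. The annotated transcript with the longest coding sequence may not be the main one in these cells.

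**Figure D4:**
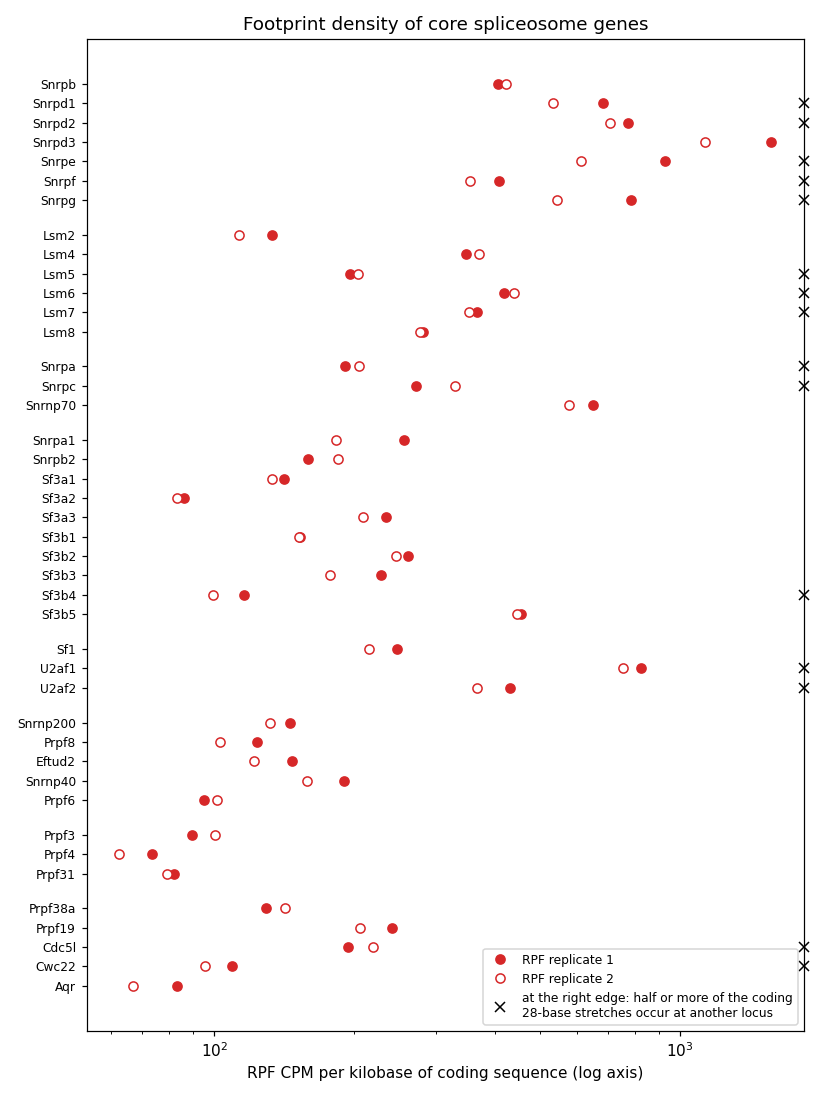
RPF CPM per kilobase of coding sequence (x axis, log scale) of the 42 tested core spliceosome genes by particle, with 1 point for each RPF replicate. Crosses at the right edge mark the 15 genes with at least 50% of coding stretches at another locus. The Sm ring has the highest median of the particles, 664, with Snrpd3 at a mean of 1351, and Prpf4 is lowest at 67.9.

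RPF replicate 1 was above RPF replicate 2 for 31 of the 42 genes, and total RNA replicate 1 above total RNA replicate 2 for 35 of 42. The quotient of the RPF replicates ran from 0.825 to 1.52, with the top value in Snrpe, and that of the total RNA replicates from 0.898 to 1.29. In the Sm ring, 6 of the 7 genes had more RPF CPM in replicate 1. The same orders were not counted over all tested genes, so these counts are not read as a trait of the core genes.

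Beside the core members, 97 other genes of the splicing pathway were read from the same fit. Of these, 95 were matched and 94 tested, and 52 were higher in RPF, 5 lower and 37 did not pass. Their median ratio was 0.51, and over all tested genes 20.5% were higher and 21.2% lower. These shares are the background for each list that follows, and lists of a few genes are given as counts only. The difference between these genes and the core genes was not tested. The Prp19-related list had 9 of 14 higher (median 0.90), led by Crnkl1, a scaffold protein, at 1.49 ± 0.16, while Bcas2, a subunit of the Prp19 complex, had −0.04. Other U2 and A complex genes had 9 of 13 higher (median 0.75), with Dnajc8 at 1.44 ± 0.14 and the regulator Rbm10 at −0.11. Genes of activation and the last catalytic step had 9 of 12 higher (median 0.59), with Cdc40 at 1.10 ± 0.15 and Prpf18 at −0.29 ± 0.13, which did not pass. In the tri-snRNP list 6 of 9 were higher and 1 lower, with Sart1, which helps join the tri-snRNP, at 1.19 ± 0.14. The lower one was Txnl4a, a small U5 protein, with 20.2 and 20.4 CPM in RPF, against 41.3 and 34.6 CPM in total RNA, a ratio of −0.90 ± 0.18 (adjusted p = 0.00708). For Txnl4a, 35.9% of the coding sequence is overlapped by another gene's exon, and the call was lost without total RNA replicate 1 and when ratios were corrected for the coding share of the exons.

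The B complex list had 4 of 7 higher and 1 lower. Ubl5, a ubiquitin-like protein, was at 1.73 ± 0.13, and Mfap1a was at −2.32 ± 0.26, with 4.27 and 3.5 CPM in RPF, against 19.1 and 19.8 CPM in total RNA. All coding stretches of Mfap1a, 100%, occur at another locus, so its value is uncertain. U1-associated genes had 3 of 6 higher, from Rbm25 at 1.51 ± 0.17 to Prpf39 at −0.56 ± 0.20, which did not pass. The minor spliceosome had 4 of 9 higher, with Snrnp35 at 1.81 ± 0.38 and Snrnp25 at −0.15. The disassembly list had 1 of 3 higher, Tfip11 at 0.77 ± 0.13, with Gcfc2 at −0.12. Genes of snRNP assembly, which load the Sm ring onto snRNA, had 7 of 14 higher, with Gemin2 at 1.21 ± 0.16 and Strap at −0.35.

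Other Lsm and Sm-like genes had 0 of 7 higher and 3 lower, with a median ratio of −0.46, beside 20.5% higher and 21.2% lower over all tested genes, and so few genes set nothing apart. At an unadjusted p under 0.05 in the same test, 0 of these 7 genes were higher. The share of all genes at that threshold was not counted. DESeq2 and limma-voom also called 0 of the 7 higher, against 2597 and 2795 of the 13809 genes tested. Naa38 had the highest ratio among those with at least 10 CPM, 0.42, which did not pass (adjusted p = 0.28). It passed without RPF replicate 2, at 0.72 (adjusted p = 0.0222), and with the replicate block (adjusted p = 0.0105), and it had 0.049 without RPF replicate 1. Lsm1, the subunit that takes the place of Lsm8 in the cytoplasmic ring of mRNA decay, had 20.8 and 27.8 CPM in RPF, against 48.8 and 44.8 CPM in total RNA. Its ratio was −0.94 ± 0.19 (adjusted p = 0.00775), with RPF below total RNA in every library, whereas Lsm8 of the nuclear ring had 84.2 and 82.8 CPM in RPF, against 51.7 and 48.2 CPM in total RNA. The difference between Lsm1 and Lsm8 was not tested. The other 2 lower genes, named after their values were seen, were Lsm14a, a P-body protein, at −0.63 and Lsm12 at −0.46. Both calls were lost without total RNA replicate 1 or 2, and that of Lsm12 also without RPF replicate 2 and with DESeq2.

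**Figure D5:**
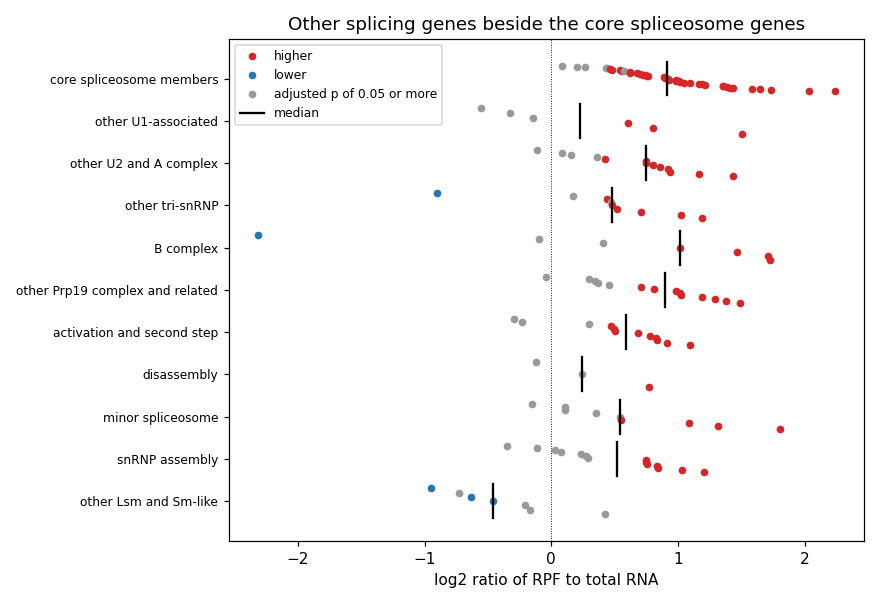
Log2 ratio of RPF to total RNA (x axis) of single genes (points) in the core spliceosome list and in each list of other pathway genes (rows), coloured by whether they were higher, lower or not past an adjusted p of 0.05, with the median of each list as a line. Points of the core list lie above 0 under TMM scaling, around 0.91, and the median of the other Lsm and Sm-like genes is −0.46.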

How the data were processed

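RPF and total RNA were sequenced from 2 replicates each, with 50 bp reads and 4 runs per RPF library, per the labels. The authors' deposited files hold raw counts per gene without normalisation. Per the submitters' processing notes, Bowtie 1.2.3, TopHat2 2.1.1, HTSeq 0.11.2, edgeR 3.26.8 and the build mm9 were used. No source used here names the annotation, the feature counted or whether strand was used, so reads of overlapping and antisense genes cannot be told apart. HTSeq tallies such as ambiguous reads were kept out of library sizes. They took 4.96% and 8.58% of tallied reads in RPF, and 0.755% and 0.719% in total RNA. Reads assigned to no feature took 5.95% and 6.66% in RPF, and 23.4% and 26.2% in total RNA.

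Symbols, lengths and sequences were joined from GENCODE M21 (GRCm38) on the Ensembl identifier, its version dropped, which named 87.4% of identifiers. No coordinates are given because the builds differ. edgeR 4.0.16 (R 4.3.3, limma 3.58.1) fitted fraction alone by quasi-likelihood to all 4 libraries after filterByExpr (minimum count 10, total 15), with TMM factors of 0.821 and 0.902 for RPF and 1.14 and 1.18 for total RNA. Tests were two-sided, with Benjamini-Hochberg adjustment over the 13809 genes kept and a threshold of 0.05. The replicates are called biological in the labels' protocol, with no culture named, and p-values measure only the spread between these samples. A count of 0 allows up to 3 counts in a library, for counting error only. On simulated data for this comparison with 13809 genes, 66 of 100 genes changed by a log2 of 1 and 99 of 100 changed by a log2 of 2 were recovered, and 13 unchanged genes were called. Only these genes were changed, up and down in equal number, all with a mean of at least 10 CPM. In the data 2835 genes were called higher and 2930 lower, so recovery there may differ.

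Full values were given for the highest and lowest ratio of each particle and for Cwc22, Prpf8, Snrpb, Sf3b1, U2af2 and Lsm3, and the highest and lowest of each other list with a mean of at least 10 CPM were named. Members and lists were chosen with earlier results of these data known. Alternatives were other scalings, filters and tests (DESeq2 1.42.0, limma-voom, glmTreat), a replicate block, corrections for coding share and exon length, and each library left out.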

Additional observations from a re-analysis of the deposited data

Results flagged for a closer look

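Ambiguous reads and reads not uniquely aligned, which enter no ratio, were each a larger share in RPF than in total RNA, and this is why they are listed here. Reads assigned to no feature, also set aside, were a smaller share in RPF. Ambiguous reads, those over more than 1 gene, were 4.96% and 8.58% of tallied reads in RPF replicates 1 and 2, against 0.755% and 0.719% in total RNA. Reads not uniquely aligned were 21.0464% and 20.6% in RPF, against 16.6% and 16.5% in total RNA. For core spliceosome genes whose coding sequence is repeated elsewhere, such as Snrpg and Lsm7, the part of these reads in the ratios was not tested.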

How the results depend on the processing

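Of 672 ratios of the 42 core genes under 16 alternatives, 582 kept direction and side of the threshold, 66 lost the call, 19 gained it and 5 turned sign. Of 36 called genes, 21 kept the call throughout. Members higher were 22 when tested against a fold of 1.5 (glmTreat) and 26 to 37 with a library left out, and 0 were lower in any setting. Their median was 0.48 with library size alone and 0.81 to 0.99 with a library left out. Genes higher overall were 1223 with library size alone, 1155 with glmTreat and 1634 to 3123 with a library left out. Genes lower overall were 4961, 1549 and 1861 to 3310 in the same settings. With the replicate number as a block, 4257 genes and 40 members were higher, and 4302 and 41 with a coding-share correction added. Same-numbered libraries deviated together (correlation 0.41), but no label says that the numbers pair them. With library size alone the ratio was −0.24 for Lsm2, −9.97e-05 for Snrnp40, −0.35 for Prpf4, −0.16 for Prpf31 and −0.017 for Naa38. With a library left out it ran from −0.033 to 0.19 for Prpf4, from −0.24 to 0.017 for Rbm10, from −0.076 to 0.0040 for Bcas2 and from −0.40 to 0.13 for Gcfc2, with 0.0066 for Rbm10 without total RNA replicate 1. Corrected for coding share, Bcas2 had 0.22, also with the block, and 0.15 with exon length added, where Gcfc2 had 0.00098. Among the 10 called core genes that lost their call with a library left out, the highest adjusted p over the 16 alternatives lay between 0.188 for Eftud2 and 0.858 for Lsm4, and the lowest between 3.73e-28 for Sf3b5 and 1.63e-05 for Lsm5. The causes were not tested.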
